A study of Mus musculus with 12 samples.

Results

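The 48 genes described here encode the proteins that license origins of DNA replication and build and run the replication fork. They were taken by gene symbol, from a fixed list of 48, out of 24091 genes measured by poly(A) RNA sequencing in 12 mouse samples, and the rule used no measured value. The 4 groups held 3 samples each. The tumors were medulloblastomas of the label genotype Brca2-mut;Trp53-mut from mice GB344, GB359 and GB370, and the adjacent cerebella came from the same 3 mice. The controls were tumor-free cerebella of 2 genotypes, Brca2-mut;Trp53-WT from mice GB361, GB508 and GB512 and Brca2-WT;Trp53-mut from mice GB517, GB519 and GB520.

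The Brca2 mutation removes the exons that encode the PALB2-binding region, and the deletion was made by a Cre recombinase driven by the human GFAP promoter, so it reached neural lineages of the central nervous system and not every cell of a dissected piece. The Trp53 knockout was present in the whole animal, and tumor, adjacent and Brca2-WT;Trp53-mut samples all carried it. The study describes the controls as age-matched adult cerebellum, and the labels give no age for a single mouse. The labels did not say whether tissue was pooled, and each library is taken as 1 mouse. Levels are in TPM, an abundance scaled to transcript length and to the total of the library, so that the levels of different genes can be set side by side within a library.

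Replication is licensed in late mitosis and G1. The origin recognition complex (ORC) binds the origin, and CDC6 and CDT1 help it to load the MCM2-7 ring as an inactive pair around DNA, while geminin holds CDT1 back later in the cycle. At the start of S phase the kinases CDC7-DBF4 and CDK let CDC45 and GINS join MCM2-7 to form the active helicase. Polymerase alpha-primase then starts each strand, polymerases epsilon and delta extend it, the clamp PCNA is loaded by RFC, RPA coats the single strands, ligase 1 joins the fragments and CAF-1 rebuilds nucleosomes. In the cerebellum these proteins are known for their high levels in dividing granule cell progenitors, which stop dividing when they become granule neurons, and Sonic hedgehog medulloblastoma arises from such progenitors. Many of these genes are textbook targets of E2F transcription factors.

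Promoter sequence was looked at because many of the genes moved together. RefSeq promoters of GRCm38.p6, running from 250 bases before to 50 bases after a start, were at hand for 40 of the 48 genes, and Gmnn, Gins1, Gins2, Gins4, Mcm4, Rfc2, Prim2 and Pole had none. The letters TTTCCCGC and TTTGGCGC, 2 forms of the E2F consensus of which neither contains the other, were searched on both strands. They were found in 14 of 40 genes (35%), against 486 of 27025 genes with a promoter (1.8%) and 394 of 12302 genes that were also tested in the first tumor comparison (3.2%). Median GC content was 63% over the promoters of these genes and 52.7% over all 32851 promoters. The 4 stretches below hold the letters, in capitals, and 12 bases on either side. Stretches that overlap the span of their own gene are not shown, and overlap with other genes was not checked. Of these stretches 3 belong to genes that were higher in tumors and 1, Orc3, to a gene that was not.
Mcm5, chr8:75109348-75109379, plus strand: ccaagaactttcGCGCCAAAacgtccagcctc
Mcm6, chr1:128359733-128359827, minus strand: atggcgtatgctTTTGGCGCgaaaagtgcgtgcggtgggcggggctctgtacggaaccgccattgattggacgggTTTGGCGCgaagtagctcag
Gins3, chr8:95633506-95633537, plus strand: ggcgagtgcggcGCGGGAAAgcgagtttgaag
Orc3, chr4:34614964-34614995, minus strand: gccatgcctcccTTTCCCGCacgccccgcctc
Each is read 5′ to 3′ on the strand of its gene, and GCGCCAAA and GCGGGAAA are the same letters read on the other strand. Mcm6 held TTTGGCGC at 110 and at 47 bases before its start, in the same orientation. Among genes called higher in tumors against Brca2-WT;Trp53-mut cerebellum 13 of 34 held a match, and among those not called 1 of 6 did. A match describes letters only.

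TPM summed to 999793 to 999876 in every library and 15088 to 15803 genes reached 1 TPM. Read depth is not given, so no counting error can be stated and the errors below are those between mice. The labelled tissue was checked against marker genes. The summed level of 5 granule cell progenitor markers, Atoh1 and Gli1 among them, was 695 to 1653 TPM in the tumors and 36.1 to 47.7 TPM in controls, and that of 6 mature granule neuron markers was 109.5 to 384 TPM in tumors and 2541 to 3308 TPM in controls. The summed level of 6 markers of dividing cells was 521 to 528 TPM in tumors. It was 226 and 132 TPM in adjacent cerebella GB344 and GB359 and 16.3 TPM in GB370. In 5 controls it was 3.01 to 4.31 TPM, and in the Brca2-mut;Trp53-WT cerebellum of mouse GB512 it was 33.8 TPM. Adjacent cerebellum GB370 and control GB512 thus stood apart from their groups, and several of the values that these libraries move are also given without them. Whole-gene Trp53 levels were 124 to 130.5 TPM in tumors, 47.1 to 49.4 TPM in Brca2-WT;Trp53-mut and 33.1 to 37.2 TPM in Brca2-mut;Trp53-WT cerebellum. Whole-gene Brca2 levels were 8.22 to 14.6 TPM in tumors and 3.24 to 4.40 TPM in all controls. Both values include exons outside the deleted parts, so they check neither deletion.

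The tumors were compared with Brca2-WT;Trp53-mut cerebellum to ask which replication genes differ between tumor and tumor-free tissue that lacks Trp53 as well. Of the 48 genes 42 rose in tumors and 0 fell, while 13.5% of the 15970 genes tested were called higher and 22.3% lower. A call needed both a limma adjusted p below 0.01 and a difference of 1 or more in log2(TPM + 1), in either direction. At an unadjusted p under 0.05, 46 were higher and 1 was lower. The unadjusted share over all genes was not taken in the tumor comparisons. At an adjusted p under 0.05 with no fold minimum, 45 were higher and 1 lower, against 4397 and 6081 of 15970 genes. The median log2 fold change was 2.24 over the 48 genes and -0.16 over all genes tested, a distance of 2.40. Another scaling moved the all-gene median by 0.15 (median-of-ratios) or 0.21 (quantile normalization) and left that distance at 2.42 or 2.38. Of all genes called in this comparison 37.8% were higher with TPM as deposited and 47.8% after quantile normalization. In 46 of the 48 genes every tumor was above every control, against 30.9% of all genes. In 15 genes mean TPM was 10 or more times the control mean. In bulk tissue fewer cells of a type and less RNA per cell cannot be told apart, and markers of dividing cells and of granule cell progenitors moved the same way (6 of 6 and 5 of 5 called higher, while 6 of 6 mature granule neuron, 5 of 5 Purkinje cell, 5 of 5 oligodendrocyte and 4 of 5 astrocyte and Bergmann glia markers were called lower). Of 5 choroid plexus markers 4 were called lower, with a sum of 20.1 to 47.7 TPM in tumors and 3960 to 5179 TPM in these controls, and 1 of 5 microglia markers was called higher and 1 of 4 endothelial markers lower. Their part in the result was not tested.

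**Figure D1:**
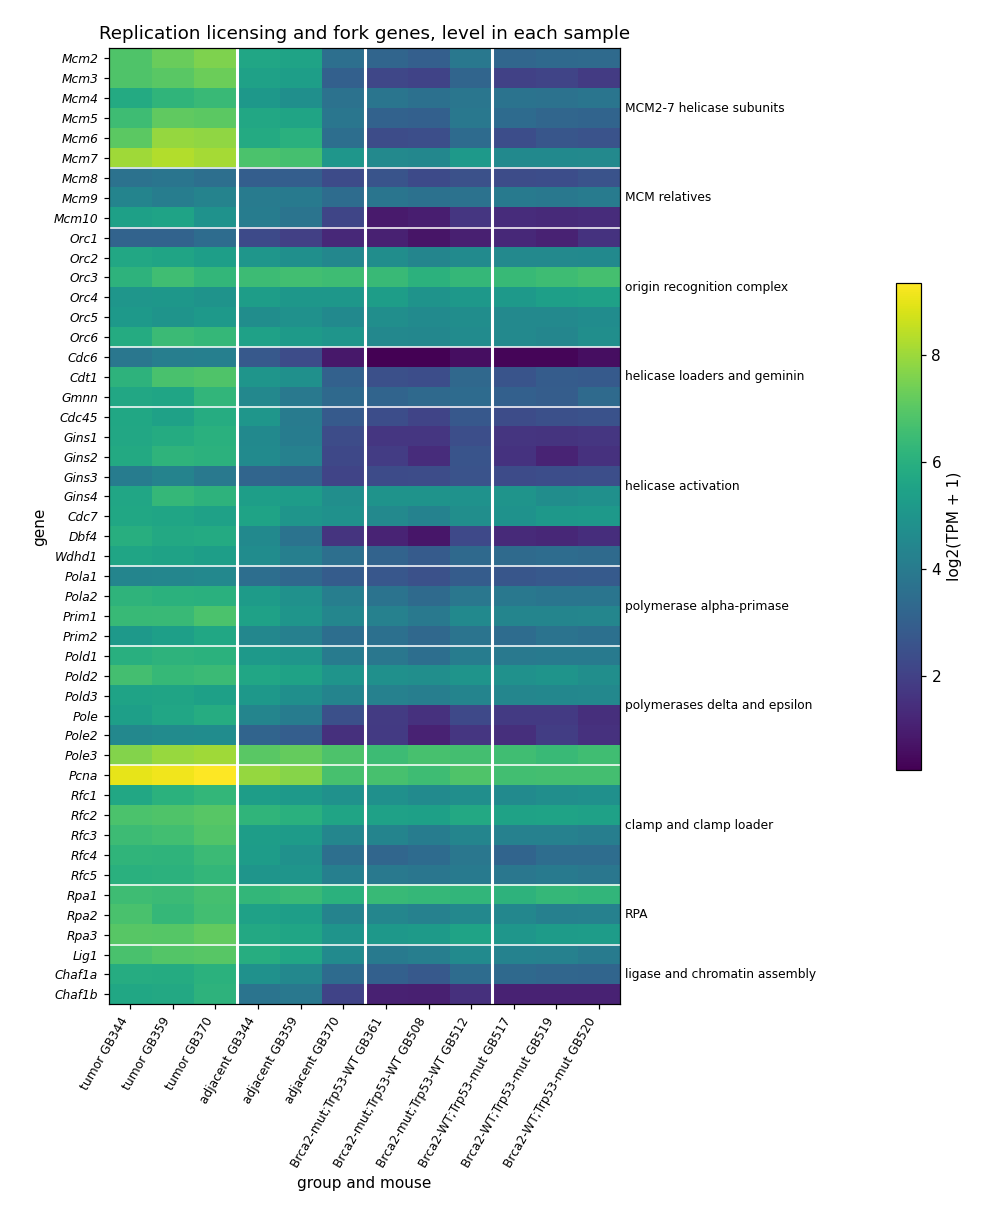
Level of each of the 48 genes as log2(TPM + 1) in each of the 12 samples, with genes in rows grouped by role and samples in columns by group and mouse number. The 3 tumor columns are brightest, adjacent cerebella GB344 and GB359 lie between tumor and control, and adjacent cerebellum GB370 is close to the 6 controls. Orc3, Orc4, Orc5 and Rpa1 differ little along their rows.

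All 6 subunits of the MCM2-7 ring, the motor of the replicative helicase, rose in tumors. Positions of genes are those of GRCm38.p6. Mcm3 (Entrez Gene 17215, chromosome 1, 20802966 to 20820312) had the highest log2 fold change of TPM + 1 of all 48 genes. On that scale the folds of low genes are understated. It was at 114, 129 and 157 TPM in the GB344, GB359 and GB370 tumors and at 2.96, 3.31 and 2.52 TPM in controls GB517, GB519 and GB520, a log2 fold change of 5.09 (SE 0.16, limma adjusted p = 3.91e-06). Mcm4 had the lowest of the ring. It was at 55.1, 73.2 and 83.4 TPM in the tumors and at 11.9, 11.8 and 12.9 TPM in the controls, a log2 fold change of 2.42 (SE 0.16, limma adjusted p = 3.20e-05). Neither gene overlapped between groups. Mcm6 followed Mcm3 at 5.05, with 133 to 239 TPM in tumors and 4.3 to 5.44 TPM in controls, then Mcm2 at 3.90, Mcm5 at 3.62 and Mcm7 at 3.61. Mcm7, the most abundant subunit, reached 264 to 316 TPM in tumors.

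The relatives of the ring split. Mcm10 (Entrez Gene 70024, chromosome 2, 4990724 to 5012791), which acts in switching the helicase on, rose from 1.66, 1.51 and 1.64 TPM in controls GB517, GB519 and GB520 to 41.6, 45 and 28.2 TPM in the GB344, GB359 and GB370 tumors, a log2 fold change of 3.89 (SE 0.20, limma adjusted p = 1.23e-05). Mcm8 and Mcm9 form a separate helicase that works in homologous recombination. Mcm8 rose by a log2 fold change of 1.23, with 10.8 to 12.7 TPM in tumors and 4.16 to 4.88 TPM in controls. Mcm9 was not called. It was at 19.5, 16.3 and 19.1 TPM in the tumors and 14.9, 13.9 and 15.2 TPM in controls, and although every tumor was above every control its log2 fold change was 0.30 (SE 0.12, limma adjusted p = 0.072). Of the exon bases of Mcm9 17% lie opposite exons of Asf1a, and without strand information the reads of both genes cannot be told apart.

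ORC, which marks the origins, was the role with the lowest share of calls, 3 of 6. Orc1 (Entrez Gene 18392, chromosome 4, 108575705 to 108616030), the subunit whose level is known to cycle, was the least abundant in every sample and had the highest fold. It was at 7.72, 7.92 and 9.91 TPM in the GB344, GB359 and GB370 tumors and at 1.42, 1.15 and 1.95 TPM in controls GB517, GB519 and GB520, a log2 fold change of 1.93 (SE 0.18, limma adjusted p = 1.15e-04). Orc6, the subunit that is only loosely bound to the others, had a log2 fold change of 1.64, with 56.6 to 86.2 TPM in tumors, and Orc2 was just past the fold threshold, a call that was lost on leaving out tumor GB344, tumor GB359, control GB517 or control GB519. Orc5 had a log2 fold change of 0.49 (SE 0.11, limma adjusted p = 0.00647), under the fold threshold, with 34.5, 29.8 and 33.8 TPM in the tumors and 22.1, 22.3 and 24.3 TPM in controls.

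Orc3 and Orc4, core subunits of the complex, had negative values. Orc4 was at 31.4, 32.5 and 29.6 TPM in the GB344, GB359 and GB370 tumors and at 34.7, 41 and 42.5 TPM in controls GB517, GB519 and GB520. Every tumor was below every control, as in 41.7% of all genes, and the log2 fold change was -0.33 (SE 0.11, limma adjusted p = 0.0408). Orc3 was at 69.3, 92.5 and 75.5 TPM in the tumors and 83, 91.6 and 101 TPM in controls. These ranges overlapped, with a log2 fold change of -0.22 (SE 0.14, limma adjusted p = 0.194). Both values lie near the all-gene median of -0.16, and with median-of-ratios scaling they were -0.16 for Orc4 and -0.05 for Orc3.

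The loaders had among the highest folds. Cdt1 (Entrez Gene 67177, chromosome 8, 122568015 to 122573130), which brings MCM2-7 to the origin, rose from 5.14, 6.48 and 6.12 TPM in controls GB517, GB519 and GB520 to 68.8, 104 and 113 TPM in the GB344, GB359 and GB370 tumors, a log2 fold change of 3.77 (SE 0.20, limma adjusted p = 1.50e-05). Gmnn, which encodes geminin, the inhibitor of CDT1, was at 7.16, 6.6 and 9.46 TPM in controls and 51.1, 47.4 and 74.1 TPM in tumors, a log2 fold change of 2.73 (SE 0.21, limma adjusted p = 5.11e-05). Cdc6, the ATPase that closes the loading complex, was the least abundant gene in controls at 0.275, 0.286 and 0.503 TPM and reached 13.5, 16.7 and 17.2 TPM in tumors. Its log2 fold change of 3.63 understates the ratio of mean TPM, 44.5, since 1 was added to each level. Cdt1 exceeded Gmnn in all 3 tumors, by 1.35 to 2.19 times, and was below it in all 6 controls, at 0.464 to 0.981 times.

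Of 8 genes that activate the helicase 7 were called. Gins2 (Entrez Gene 272551, chromosome 8, 120581266 to 120589075), a subunit of the GINS complex, rose from 1.95, 1.23 and 1.91 TPM in controls GB517, GB519 and GB520 to 53.8, 70.5 and 67.8 TPM in the GB344, GB359 and GB370 tumors, a log2 fold change of 4.59 (SE 0.18, limma adjusted p = 6.44e-06). Of the exon bases of Gins2 70.7% lie opposite exons of Gse1 in GENCODE. Gse1 was at 178, 279.9 and 241 TPM in tumors and 30.7 to 37.3 TPM in these controls. Without strand the reads of the overlap cannot be told apart, so the level of Gins2 is uncertain. Gins1 does not share exon bases and rose by 4.21 on the log2 scale, with 51.4 to 64.6 TPM in tumors and 2.03 to 2.22 TPM in controls. Cdc45, the helicase cofactor, rose by 3.21, Wdhd1, which ties the helicase to polymerase alpha, by 2.06, Gins3 by 1.70 and Gins4 by 1.21.

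Of the kinase CDC7 and its activating subunit DBF4, the gene of the latter alone was called. Dbf4 rose by 4.50 on the log2 scale, from 1.49, 1.38 and 1.69 TPM in controls GB517, GB519 and GB520 to 61.5, 52.2 and 54.4 TPM in the GB344, GB359 and GB370 tumors. Cdc7 was already at 28.7, 33 and 35.4 TPM in controls and at 49.8, 46.9 and 42.4 TPM in tumors, a log2 fold change of 0.51 (SE 0.12, limma adjusted p = 0.00823), under the fold threshold. There was 1.11 to 1.28 times as much Dbf4 as Cdc7 in tumors and 0.0389 to 0.147 times as much in the 6 controls, so the ratio did not overlap between them. Without control GB512 the highest control ratio was 0.0544.

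The 4 genes of polymerase alpha-primase, which lays down the starting stretch of each fragment, moved within a narrow range. Pola2 (Entrez Gene 18969, chromosome 19, 5940543 to 5964238) had the highest log2 fold change, 2.28 (SE 0.10, limma adjusted p = 8.70e-06), with 70.5, 66.2 and 64.4 TPM in the GB344, GB359 and GB370 tumors and 13.9, 12.7 and 12.6 TPM in controls GB517, GB519 and GB520. Pola1, the catalytic subunit, had the lowest, 1.67 (SE 0.12, limma adjusted p = 4.40e-05), with 19.6, 20.6 and 21.6 TPM in the tumors and 5.36, 5.85 and 6.15 TPM in controls. The primase genes Prim1 and Prim2 were between them at 2.13 and 1.81. None of the 4 genes overlapped between tumors and controls.

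All 6 genes of polymerases delta and epsilon rose, over a wider range. Pole (Entrez Gene 18973, chromosome 5, 110286319 to 110337468), the catalytic subunit of the leading-strand polymerase epsilon, rose from 2.43, 2.47 and 1.75 TPM in controls GB517, GB519 and GB520 to 41.1, 47.9 and 57.7 TPM in the GB344, GB359 and GB370 tumors, a log2 fold change of 3.95 (SE 0.18, limma adjusted p = 9.12e-06). Pold3, an accessory subunit of the lagging-strand polymerase delta, was at 20.2, 21 and 21.6 TPM in controls and 44.7, 46 and 42 TPM in tumors, a log2 fold change of 1.04 (SE 0.10, limma adjusted p = 1.10e-04). Pole2 rose by 2.95, Pold1, the catalytic subunit of delta, by 2.10, Pold2 by 1.62 and Pole3 by 1.38. Pole3, a histone-fold subunit that is also part of a chromatin remodeler, was the most abundant of the 6 in controls at 83.9 to 93.5 TPM.

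The clamp and its loader rose in full, 6 of 6. Pcna, the sliding clamp, was the most abundant of the 48 genes in every tumor at 517.1, 564 and 649 TPM in the GB344, GB359 and GB370 tumors, against 95.2, 97.7 and 98.4 TPM in controls GB517, GB519 and GB520, a log2 fold change of 2.55. Within the loader Rfc4 (Entrez Gene 106344, chromosome 16, 23113948 to 23127730) had the highest value, 2.88 (SE 0.14, limma adjusted p = 1.14e-05), with 72.4, 71.3 and 85.9 TPM in the tumors and 7.95, 10.3 and 10.3 TPM in controls. Rfc1, the large subunit, had the lowest, 1.30 (SE 0.16, limma adjusted p = 4.56e-04), with 51, 66 and 76.8 TPM in the tumors and 23.1, 25.6 and 27.3 TPM in controls. Rfc3, Rfc5 and Rfc2 had 2.46, 2.24 and 1.37.

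RPA binds single-stranded DNA as a trimer, and 2 of its 3 genes were called. Rpa2 (Entrez Gene 19891, chromosome 4, 132768360 to 132778746) rose from 21, 17.4 and 18 TPM in controls GB517, GB519 and GB520 to 106, 78.9 and 96.2 TPM in the GB344, GB359 and GB370 tumors, a log2 fold change of 2.25 (SE 0.14, limma adjusted p = 2.33e-05), and Rpa3 rose by 1.85, with 121 to 142 TPM in tumors. Rpa1, the largest subunit, was at 69.2, 78.5 and 73.4 TPM in controls and 89.9, 85.6 and 101 TPM in tumors. Every tumor was above every control, yet the log2 fold change was 0.32 (SE 0.10, limma adjusted p = 0.0285), and it was not called.

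Behind the fork all 3 genes rose. Chaf1b (Entrez Gene 110749, chromosome 16, 93883900 to 93906115), the middle subunit of the histone chaperone CAF-1, was at 1.16, 1.14 and 1.15 TPM in controls GB517, GB519 and GB520 and at 49.7, 51.7 and 69.7 TPM in the GB344, GB359 and GB370 tumors, a log2 fold change of 4.74 (SE 0.17, limma adjusted p = 4.85e-06). Chaf1a, the large subunit, had the lowest value of the role, 2.65 (SE 0.11, limma adjusted p = 7.87e-06), with 57.8, 56.9 and 65.1 TPM in the tumors and 9.25, 8.57 and 8.31 TPM in controls, and 33.6% of its exon bases lie opposite Ubxn6. Lig1, which joins Okazaki fragments, rose by 2.68. In all, 18 of the 48 genes share some exon bases with another annotated gene, and beyond Gins2 and Chaf1a the share is above 20% only in Orc2, which is opposite Nif3l1 for 24% of its exon bases.

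The tumors were then compared with Brca2-mut;Trp53-WT cerebellum, which carries the Brca2 deletion but not the Trp53 knockout. This comparison shares its tumor samples with the first, so it is no independent repeat. Again 42 of 48 genes rose and 0 fell, against 14.3% of 15767 genes called higher and 20.5% called lower, with a median log2 fold change of 2.32 for the 48 genes and -0.03 for all genes. Every tumor was above every control in 46 genes, against 33.2% of all genes. At an unadjusted p under 0.05, 45 were higher and 0 lower, with no share over all genes taken. At an adjusted p under 0.05 with no fold minimum, 45 were higher, against 4707 higher and 5294 lower of 15767 genes. Between the 2 comparisons 41 genes were called in both and 43 in at least 1. Cdc7 was called here and not there, and Orc2, at 0.96, the reverse. Without control GB512 the count was again 42. The call of Cdc7 was lost without control GB508 and that of Gins4 without tumor GB359. Markers of other cells moved here too, with 6 of 6 of dividing cells, 5 of 5 of granule cell progenitors and 1 of 5 of microglia called higher. Called lower were 6 of 6 of mature granule neurons, 5 of 5 of Purkinje cells, 5 of 5 of oligodendrocytes, 4 of 5 of astrocytes and Bergmann glia, 1 of 4 endothelial and 1 of 4 choroid plexus markers, and their part in the result was not tested.

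The 5 highest values were those of Mcm6, Chaf1b, Mcm3, Dbf4 and Mcm10. Mcm6 was at 4.18, 4.34 and 9.76 TPM in controls GB361, GB508 and GB512 and at 133, 239 and 229 TPM in the GB344, GB359 and GB370 tumors, a log2 fold change of 4.87 (SE 0.34, limma adjusted p = 3.30e-05). Chaf1b was at 1.12, 1.07 and 1.81 TPM in these controls, with 4.63 (SE 0.20, limma adjusted p = 1.65e-05). Mcm3 was at 3.47, 3.25 and 8.32 TPM, with 4.57 (SE 0.31, limma adjusted p = 2.96e-05). In all 3 genes control GB512 was the highest of the controls and still far below the lowest tumor. Dbf4 was at 1.19, 0.713 and 3.79 TPM, with 4.44 (SE 0.37, limma adjusted p = 5.69e-05), and Mcm10 at 0.859, 1.0 and 2.21 TPM, with 4.08 (SE 0.28, limma adjusted p = 2.87e-05). Without control GB512 the log2 fold changes were 5.21 for Mcm6, 4.78 for Chaf1b, 4.93 for Mcm3, 4.88 for Dbf4 and 4.32 for Mcm10. Cdc7 was at 21.9, 18.3 and 25.8 TPM in these controls, below each of its 3 values in Brca2-WT;Trp53-mut cerebellum, and its log2 fold change was 1.05 (SE 0.15, limma adjusted p = 8.19e-04). Genes not called were Mcm9 at 0.57, Orc2, Orc3 at 0.04, Orc4 at -0.10, Orc5 at 0.39 and Rpa1 at 0.24. The sign of Orc3 turned without tumor GB359 or control GB508, and that of Orc4 without control GB361.

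**Figure D2:**
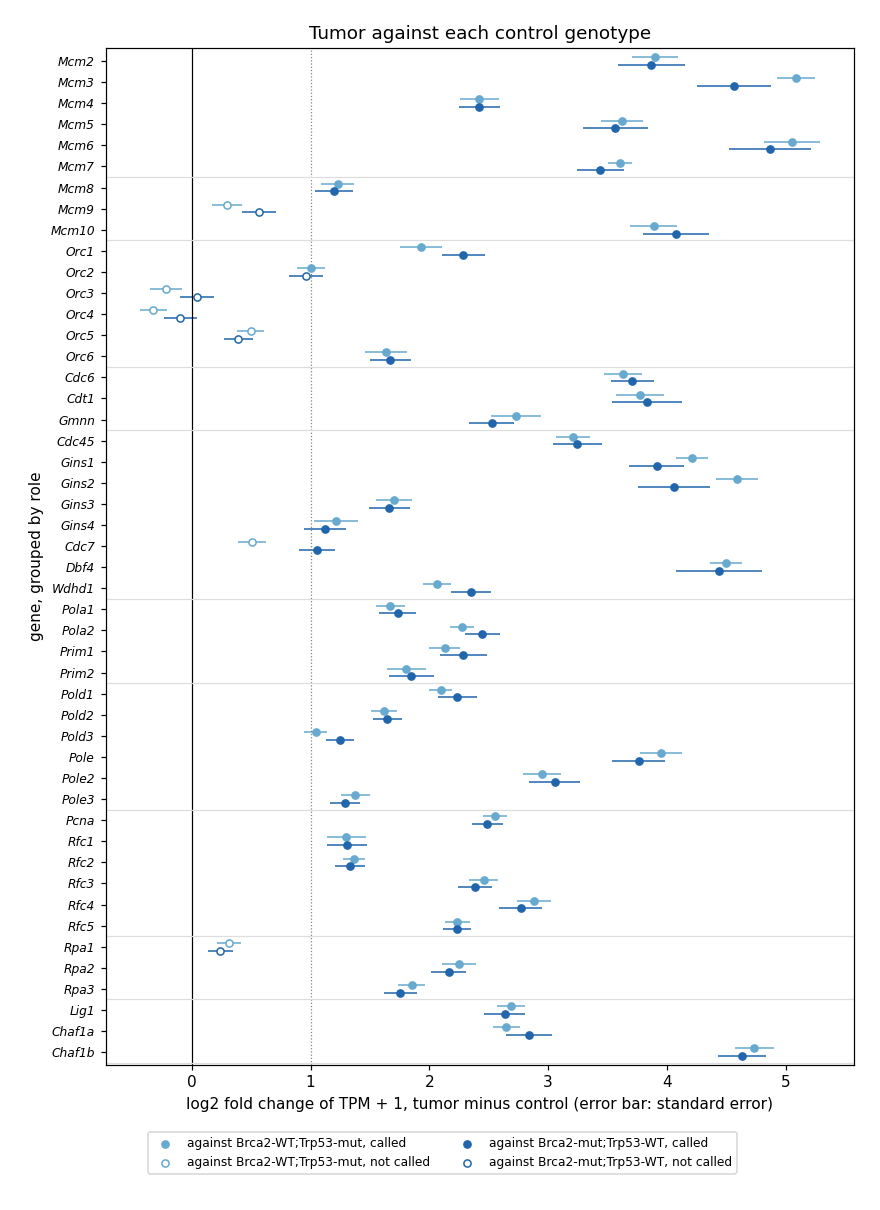
Log2 fold change of TPM + 1, tumor minus control, for each of the 48 genes against each control genotype, with the standard error as bar. Filled points passed the thresholds and open points did not. Values of the same gene lie close together in most rows, and open points sit at Mcm9, Orc3, Orc4, Orc5 and Rpa1 for both controls, at Orc2 for Brca2-mut;Trp53-WT and at Cdc7 for Brca2-WT;Trp53-mut.

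Subunits of 1 complex stood at more even levels in tumors than in controls, as described here with no test. The most abundant ORC subunit exceeded the least abundant 7.87 to 11.7 times in tumors and 51.6 to 99.4 times in the 6 controls. For RFC the ratio was 1.63 to 2.09 in tumors and 3.89 to 5.47 in controls, for RPA 1.40 to 1.53 and 3.30 to 4.51, and for GINS 3.45 to 4.84 and 6.47 to 20.1. These 4 ranges did not overlap. For MCM2-7 they did, at 3.32 to 4.79 and 4.19 to 8.75. The GINS ratios include Gins2, whose level is uncertain because 70.7% of its exon bases lie opposite Gse1. The lowest control ratio of GINS, of RFC and of MCM2-7 was that of GB512. Without it the other 5 controls were at 12.9 to 20.1 for GINS and at 4.14 to 5.47 for RFC. For MCM2-7 they were at 6.42 to 8.75, a range that did not meet that of the tumors. Over all 48 genes the SD of log2(TPM + 1) within a library was 1.09 to 1.2 in tumors and 1.42 to 1.59 in controls, or 1.54 to 1.59 without GB512.

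The shares of subunits within a complex differed between tumors and controls, again with no test. Orc3 made up 41.7 to 46.3% of the summed ORC level in controls and 27.7 to 31.4% in tumors, while Orc6 made up 10.3 to 13.0% in controls and 22.6 to 29.3% in tumors. Gins4 made up 66.3 to 78.8% of GINS in controls and 28.9 to 35.1% in tumors, of a sum that includes Gins2, whose level is uncertain. Rpa1 made up 52.5 to 60.3% of RPA in controls and 28 to 30.0% in tumors. In the MCM2-7 ring, whose proteins act in equal numbers, the share of Mcm4 was 13.9 to 21.6% in controls and 7.0 to 7.78% in tumors, where it was the scarcest of the 6. The share of Mcm3 was 4.21 to 8.91% in controls and 12.3 to 14.8% in tumors, and that of Mcm6 7.17 to 10.5% and 17.3 to 22.8%. Without GB512 the control shares were 19.3 to 21.6% for Mcm4, 4.21 to 6.06% for Mcm3, 7.17 to 8.92% for Mcm6 and, in GINS, 75.7 to 78.8% for Gins4. The share of Mcm2 overlapped, at 13.0 to 15.9% and 14.5 to 18%. The summed MCM2-7 level was 769, 1046 and 1073 TPM in the GB344, GB359 and GB370 tumors and 53.7 to 93.4 TPM in controls, with control GB512 the highest and the other 5 at 61 TPM or less.

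**Figure D3:**
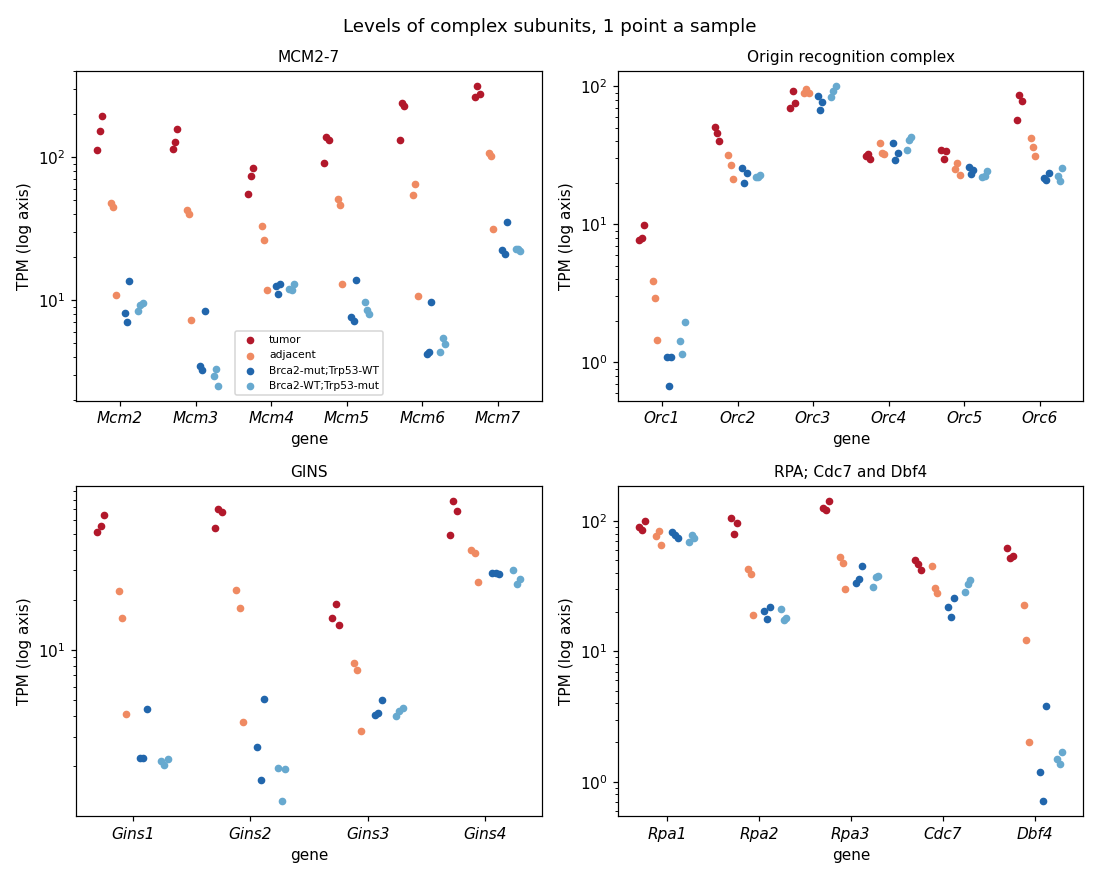
TPM on a log axis of the subunits of MCM2-7, ORC, GINS and RPA and of Cdc7 and Dbf4, with 1 point a sample colored by group. Orc3, Orc4, Orc5 and Rpa1 lie at like heights in all groups, while Mcm3, Mcm6, Gins1, Gins2 and Dbf4 are spread over a wide range, with adjacent cerebella GB344 and GB359 between the tumors and the controls.

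The 3 tumors differed by at most 1.80 times in these genes. The highest tumor exceeded the lowest by a median of 1.28 times over the 48 genes and by under 1.5 times in 38. The widest gap was that of Mcm6, 1.80 times, between 133 TPM in tumor GB344 and 239 TPM in tumor GB359, and the narrowest that of Pold3, 1.09 times. Tumor GB370 was the highest in 26 genes and tumor GB344 the lowest in 28. The spread and ranks over all genes were not taken, so these values have no background.

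The comparison of tumor with adjacent cerebellum asks the same question within the mice, so that genotype is shared. Of 48 genes 20 were called higher and 0 lower, against 4.76% of 15845 genes called higher and 18% called lower. With the mouse as a block 12 were called higher, and 701 among all genes. At an unadjusted p under 0.05, 43 were higher and 0 lower, again with no share over all genes taken. At an adjusted p under 0.05 with no fold minimum, 42 were higher, against 2870 higher and 5110 lower of 15845 genes. The median log2 fold change was 1.5 for the 48 genes and -0.14 for all genes. Every tumor was above every adjacent cerebellum in 45 genes, against 23.7% of all genes. A further 14 genes had a log2 fold change of at least 1 and missed the adjusted p. Dividing-cell markers in the adjacent cerebella ran from 16.3 to 226 TPM in sum, with none of the 6 called, and 1 of 5 granule cell progenitor markers was called higher. Called lower were 6 of 6 mature granule neuron, 5 of 5 Purkinje cell, 5 of 5 oligodendrocyte, 4 of 5 astrocyte and Bergmann glia and 1 of 4 endothelial markers. Their part in the result was not tested.

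The calls were spread unevenly over the roles. All 4 genes of polymerase alpha-primase and all 3 of ligase and chromatin assembly were called, with 3 of 6 of the clamp and loader, 3 of 6 of polymerases delta and epsilon, 2 of 3 of RPA and 2 of 3 of the loaders. Only Mcm7 of the 6 ring subunits, Orc1 of 6 in ORC and Wdhd1 of 8 in helicase activation were called. The calls did not follow the size of the change. The median log2 fold change was 2.17 over the ring, where 5 genes missed only the adjusted p, and 1.34 over polymerase alpha-primase. Without adjacent cerebellum GB370 all 6 ring subunits were called (limma adjusted p from 0.00146 to 0.00809). Orc1, Prim2, Pold1 and Pold2 then lost their calls. With the mouse as a block the spread over roles differed. Polymerase alpha-primase then had 2 calls of 4, ligase and chromatin assembly 0 of 3, polymerases delta and epsilon 1 of 6, the loaders 1 of 3, ORC 0 of 6 and the ring's relatives 1 of 3, while the clamp and loader had 3 calls, RPA 2, the ring 1 and helicase activation 1. The 5 highest values were those of Chaf1b, Dbf4, Mcm6, Mcm3 and Gins2, and of these only Chaf1b was called. It was at 12.4, 13.7 and 3.17 TPM in adjacent cerebella GB344, GB359 and GB370, with 2.62 (SE 0.48, limma adjusted p = 0.00455), and with the mouse as a block the adjusted p was 0.0103. The call was also lost on leaving out any single tumor. Dbf4 was at 22.5, 12.2 and 2.03 TPM in the adjacent cerebella, with 2.54 (SE 0.69, limma adjusted p = 0.0202). Mcm6 was at 54.8, 64.6 and 10.7 TPM, with 2.48 (SE 0.65, limma adjusted p = 0.018), Mcm3 at 42.6, 39.9 and 7.27 TPM, with 2.44 (SE 0.62, limma adjusted p = 0.0159), and Gins2 at 23, 17.8 and 3.69 TPM, with 2.33 (SE 0.58, limma adjusted p = 0.0149). In these genes adjacent cerebellum GB370 was the lowest by far. Without it the values were lower, and Dbf4 (1.69, limma adjusted p = 0.00529), Mcm6 (1.69, limma adjusted p = 0.00614), Mcm3 (1.66, limma adjusted p = 0.00187) and Gins2 (1.60, limma adjusted p = 0.00251) were each called, while Chaf1b stayed called at 2.03.

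These counts moved with the samples and the scaling. Without adjacent cerebellum GB370 the count was 28, without adjacent GB344 it was 25, and without adjacent GB359 it was 4. It was 8 without tumor GB344, 3 without tumor GB359 and 1 without tumor GB370. The number called higher among all 15845 genes moved too, from 755 to 608, 913 and 210 without adjacent GB370, GB344 and GB359. Without tumors GB344, GB359 and GB370 it was 458, 275 and 189. Median-of-ratios scaling gave 33 of the 48 genes, quantile normalization 36, and 1 fit over all 4 groups 34. Among all genes these settings gave 1282, 1648 and 1278. Of all genes called in this comparison 20.9% were higher with TPM as deposited (755 higher, 2852 lower), 34% with median-of-ratios scaling and 43.6% with quantile normalization. Those scalings moved the all-gene median by 0.16 and 0.28, and the distance of the 48 genes from it was 1.64, 1.66 and 1.60 in the same order.

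Adjacent cerebellum was compared with the 6 controls to ask whether tissue beside a tumor differs in these genes. Of 47 genes tested 0 were called in either direction by limma, against 0.224% of 16091 genes called higher and 0.0124% called lower. At an unadjusted p under 0.05, 36 were higher and 0 lower, against 22.1% of all genes higher. Every adjacent cerebellum was above every control in 13 genes, against 11.7% of all genes. The median log2 fold change was 0.75, and 0.07 over all genes. The 3 adjacent libraries were unlike each other. Adjacent cerebella GB344 and GB359 were each above all 6 controls in 44 of 48 genes, and adjacent cerebellum GB370 in 14. The share of all genes was not taken for single libraries, so these counts have no background. Of all genes called, 94.7% were higher with TPM as deposited (36 higher, 2 lower) and 69.5% after quantile normalization (41 higher, 18 lower). Without adjacent GB370, 25 of the 48 genes were called higher, and without both adjacent GB370 and control GB512, 26. Over all genes the calls rose as well, from 36 higher to 564 of 16091 without adjacent GB370 and 514 of 15794 without both.

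The 5 highest values belonged to Mcm6, Mcm3, Chaf1b, Mcm10 and Gins2. Mcm6 was at 54.8, 64.6 and 10.7 TPM in adjacent cerebella GB344, GB359 and GB370 and at 4.18 to 9.76 TPM in the 6 controls, with a median of 4.64 TPM, a log2 fold change of 2.48 (SE 0.48, limma adjusted p = 0.0164). Mcm3 was at 42.6, 39.9 and 7.27 TPM against a control median of 3.28 TPM and a range of 2.52 to 8.32 TPM, with 2.39 (SE 0.50, limma adjusted p = 0.019). In both genes GB344 and GB359 were far above the controls, and GB370 was above the highest control for Mcm6 and below it for Mcm3. Chaf1b was at 12.4, 13.7 and 3.17 TPM against 1.07 to 1.81 TPM, with a control median of 1.15 TPM and a log2 fold change of 2.07 (SE 0.34, limma adjusted p = 0.0116). Mcm10 was at 15.8, 12.4 and 3.39 TPM against 0.859 to 2.21 TPM, with a control median of 1.57 TPM and 2.03 (SE 0.37, limma adjusted p = 0.0139). Both genes were above every control in all 3 adjacent cerebella. Gins2 was at 23, 17.8 and 3.69 TPM against 1.23 to 5.07 TPM, with a control median of 1.93 TPM and 2.0 (SE 0.48, limma adjusted p = 0.0267). Without adjacent GB370 all 5 genes were called, with log2 fold changes of 3.27 for Mcm6, 3.17 for Mcm3, 2.65 for Chaf1b, 2.62 for Mcm10 and 2.72 for Gins2 (limma adjusted p from 2.45e-05 to 6.60e-04). Without control GB512 as well, they were 3.43, 3.37, 2.72, 2.70 and 2.90 in the same order. Cdc6 reached 1 TPM in 2 of these 9 samples and was not tested. It was at 5.94, 4.17 and 0.77 TPM in the adjacent cerebella and 0.182 to 0.503 TPM in controls, with a control median of 0.281 TPM.

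Each adjacent cerebellum was also placed between the control mean, taken as 0%, and the tumor of the same mouse, taken as 100%, for the 46 genes whose tumors were all above all 6 controls. The control mean included GB512, and positions without it were not taken. The median position was 38.1% in mouse GB344 (quartiles 32.5 and 44.1%), 25% in mouse GB359 (22.1 and 28.7%) and 2.36% in mouse GB370 (-0.316 and 3.52%). The 6 markers of dividing cells stood at 33.9 to 48.7%, 21.9 to 25.2% and -0.0712 to 2.23% in the same order, and the 5 of granule cell progenitors at 39.8 to 87.6%, 18.8 to 29.3% and 1.54 to 3.53%. Mki67, at 48.7, 23.1 and 1.99%, was the highest of the 6 in mouse GB344, and Atoh1, the granule cell progenitor factor, was at 49.9, 20.7 and 1.54%. The summed progenitor markers were 459, 395 and 75.2 TPM and the mature granule neuron markers 2059, 2881 and 2747 TPM. The part of dividing and progenitor cells in these positions was not tested.

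**Figure D4:**
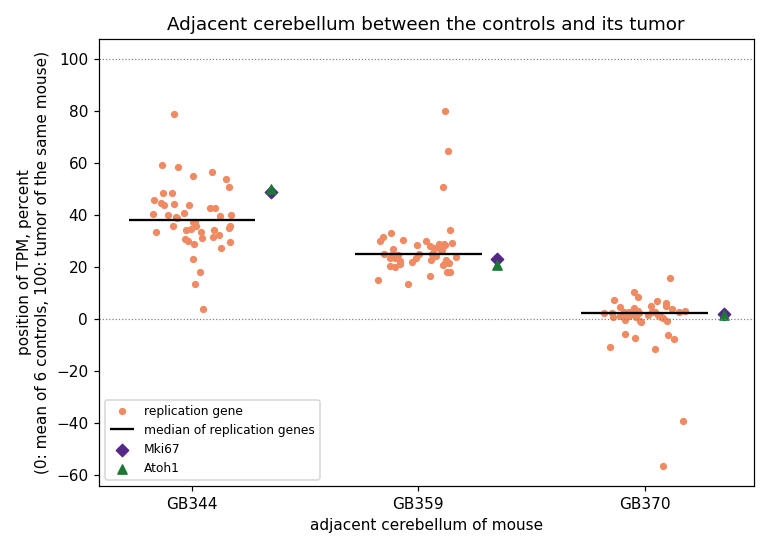
Position of each gene's TPM in adjacent cerebellum, in percent of the way from the mean of the 6 controls (0) to the tumor of the same mouse (100), for 46 genes in each of 3 mice, with the median as a line and Mki67 and Atoh1 as separate symbols. Medians are 38.1, 25 and 2.36% for mice GB344, GB359 and GB370, and Mki67 and Atoh1, chosen from 11 markers, lie at or near the points of the same mouse.

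The 2 control genotypes were compared to ask whether they differ in these genes without a tumor. Of 47 genes tested 0 were called in either direction by limma, against 0.0128% of 15575 genes called higher and 0.0449% called lower. At an unadjusted p under 0.05, 0 were higher and 3 lower, against 4.78% and 15.3% of all genes. The lowest adjusted p was that of Cdc7, at 21.9, 18.3 and 25.8 TPM in Brca2-mut;Trp53-WT cerebella GB361, GB508 and GB512 and 28.7, 33 and 35.4 TPM in Brca2-WT;Trp53-mut cerebella GB517, GB519 and GB520, a log2 fold change of -0.54 (SE 0.14, limma adjusted p = 0.106). Every Brca2-mut;Trp53-WT cerebellum was below every Brca2-WT;Trp53-mut cerebellum in 5 genes, Cdc7 and Orc1 among them, and above in 1, Gins1, against 20.3% and 6.7% of all genes. The ranges overlapped for Gins2, at 2.61, 1.65 and 5.07 TPM and 1.95, 1.23 and 1.91 TPM in the same order of mice, with 0.53 (SE 0.30, limma adjusted p = 0.359). They also overlapped for Mcm3, at 3.47, 3.25 and 8.32 TPM and 2.96, 3.31 and 2.52 TPM, with 0.52 (SE 0.30, limma adjusted p = 0.367).

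Orc1 was at 1.09, 0.676 and 1.08 TPM in Brca2-mut;Trp53-WT and 1.42, 1.15 and 1.95 TPM in Brca2-WT;Trp53-mut cerebellum, and its log2 fold change of -0.36 (SE 0.18, limma adjusted p = 0.314) was the opposite in sign to that of Gins1, 0.30 (SE 0.21, limma adjusted p = 0.482), which was at 2.25, 2.24 and 4.39 TPM and 2.15, 2.03 and 2.22 TPM. For Mcm3, Gins1 and Gins2 the values of control GB512 were the highest of all 6 controls, and without GB512 the counts of calls were again 0. Their log2 fold changes without it were 0.16, 0.05 and 0.21 in the same order, that of Orc1 was -0.41 and that of Cdc7 -0.66 (limma adjusted p = 0.0693). Of the genes called among all, 22.2% were higher (2 higher, 7 lower), against 50% with median-of-ratios scaling and 66.7% with quantile normalization. Choroid plexus markers summed to 3960 to 5179 TPM in Brca2-WT;Trp53-mut and 19.2 to 876 TPM in Brca2-mut;Trp53-WT cerebellum, and their part in these values was not tested.

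A further 29 replication factors outside the 48, among them the replisome partners Timeless and Tipin, the origin-firing factors Ticrr and Mtbp, the Okazaki nucleases Fen1 and Dna2 and enzymes of nucleotide supply, gave 24 called higher and 0 lower in tumors against Brca2-WT;Trp53-mut cerebellum, with a median log2 fold change of 1.93. Against Brca2-mut;Trp53-WT cerebellum 24 were higher, against adjacent cerebellum 12, and 0 in both other comparisons, in each case with 0 lower by limma. Between control genotypes only 26 of the 29 were tested. Of all genes 13.5%, 14.3% and 4.76% were called higher in the 3 tumor comparisons in the same order. At an unadjusted p under 0.05, 25 were higher and 0 lower in adjacent cerebellum against controls, with 22.1% of all genes higher. Between control genotypes 0 were higher and 1 lower, against 4.78% and 15.3% of all genes. The highest values in the first comparison were those of Rrm2, a subunit of ribonucleotide reductase, at 5.66 (90.9, 158 and 195 TPM in the GB344, GB359 and GB370 tumors and 1.45, 1.93 and 2.05 TPM in controls GB517, GB519 and GB520), of Tk1, which salvages thymidine, at 5.24 (53.9, 74.3 and 98.5 TPM and 0.934, 0.954 and 1.03 TPM), and of Dscc1, part of an alternative clamp loader, at 3.99 (13.1, 18.9 and 24 TPM and 0.0694, 0.0764 and 0.512 TPM). Their limma adjusted p was 1.14e-05, 8.01e-06 and 2.67e-05. Every tumor was above every control of the first comparison in 28 of the 29, against 30.9% of all genes. The exception was Pold4, a small accessory subunit of polymerase delta, singled out after its values were seen. It was at 15.5, 17.9 and 18.8 TPM in the tumors and 21.1, 21.6 and 19.7 TPM in controls GB517, GB519 and GB520, a log2 fold change of -0.25 (SE 0.12, limma adjusted p = 0.115). Against Brca2-mut;Trp53-WT cerebellum the Pold4 value was -0.41 (SE 0.15, limma adjusted p = 0.0504). Against adjacent cerebellum it was -0.56 (SE 0.16, limma adjusted p = 0.0274). Pold4 was called in neither.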

How the data were processed

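Poly(A) RNA of 12 mouse samples in 4 groups of 3 was sequenced after library preparation with a kit that, as named in the labels, does not mark strand, and the strand setting of the counting is not given in the sources used here. The authors estimated transcript abundance with Salmon 0.8.1 on mm10, per the submitters' processing notes, summed it to genes and deposited 1 table of TPM for 24091 genes, of which 2603 were at 0 in all samples. No read counts accompany it, so the depth per sample is unknown and precision rests on the 3 samples a group. The authors tested counts with DESeq2, which could not be run on TPM. All 12 sample columns were used (0 unused), and groups came from the genotype and tissue labels.

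TPM + 1 was log2 transformed, so that fold changes of low genes are understated. Within each comparison, genes that reached 1 TPM in 3 or more of its samples were fitted with limma 3.58.1 (lmFit, eBayes with trend, under R 4.3.3), and p-values were adjusted by Benjamini-Hochberg across all genes tested, in 5 comparisons. The labels name mice but not cultures or pools, so p-values measure the spread between these samples. A gene was taken as changed at an adjusted p under 0.01 with a log2 fold change of 1 in either direction. Comparisons that share samples are not independent. The fitting code was tested on simulated data. Tumor and adjacent cerebellum came from the same mice, and their deviations from the group means correlated at 0.249, 0.176 and 0.152 within mouse, so a fit with the mouse as a block was set beside the unblocked one. Alternatives covered pseudocounts of 0.1 and 0.01, no filter, a minimum of 5 TPM, median-of-ratios and quantile scaling, no trend, 1 fit over all groups, an adjusted p under 0.05 without a fold minimum, single control genotypes and leaving out each sample. Leaving out adjacent GB370 together with control GB512, and giving subunit ratios, shares and the spread over genes without GB512, were chosen after seeing the data.

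The 48 genes and the other lists were chosen with earlier results of these data known. All 48 could be named. Full statistics went to the highest and lowest fold of each role and to genes not called in the first comparison, to the 5 largest absolute folds elsewhere, and to the 3 largest and any called lower among the 29 other factors. Promoters and gene positions are RefSeq, GRCm38.p6, and exon overlaps are from GENCODE. Python 3.11.15, pandas 2.3.3, numpy 2.4.6 and matplotlib 3.10.9 made the summaries and plots.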

Additional observations from a re-analysis of the deposited data

Results flagged for a closer look

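In the 6 control cerebella, 8 of the 48 genes had a highest value that lay far from the others relative to their range (Dixon's ratio for 6 samples), and in all 8 the sample was the Brca2-mut;Trp53-WT cerebellum GB512. Chance gives about 1 in 20 such gaps. That is 16.7% of the 48 genes, while among the 16091 genes tested in adjacent cerebellum against controls 6.82% had such a gap in some control and 1.86% had it with GB512 as the highest. The 8 genes share this 1 library. The ring subunit Mcm3 was at 8.32 TPM with the next control at 3.47 TPM, Mcm6 at 9.76 with the next at 5.44 TPM, and Mcm7 at 34.9 with the next at 22.7 TPM. The helicase genes Gins1 and Gins2 were at 4.39 and 5.07 TPM, with the next controls at 2.25 and 2.61 TPM. Dbf4 was at 3.79 TPM with the next at 1.69 TPM, Rfc2 at 51.8 with the next at 44.9 TPM, and Chaf1b at 1.81 with the next at 1.16 TPM. The summed level of 6 markers of dividing cells in this sample was 33.8 TPM, and its part in these values was not tested.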

How the results depend on the processing

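Of the values of the 48 genes under 15 alternatives each, 712 of 720 kept their direction and side of the thresholds in tumors against Brca2-WT;Trp53-mut cerebellum and 708 of 720 against Brca2-mut;Trp53-WT cerebellum. Against adjacent cerebellum 569 of 768 did so under 16 alternatives. With an adjusted p under 0.05 and no fold minimum, 1 gene (Orc4) was lower against Brca2-WT;Trp53-mut cerebellum. Leaving out single samples gave 41 to 42 and 41 to 43 genes higher in these comparisons, and turned the log2 fold changes of Orc3 (-0.0737 to 0.132) and Orc4 (-0.194 to 0.00689) against Brca2-mut;Trp53-WT cerebellum.

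Against adjacent cerebellum the 20 genes called higher became 13 with a pseudocount of 0.01, 9 with no filter, 33 with median-of-ratios scaling, 36 with quantile normalization, 34 with all 4 groups in 1 fit and 42 with an adjusted p under 0.05 and no fold minimum. With the mouse as a replicate block, 12 were called (Mcm10 gained, and Orc1, Cdt1, Prim1, Prim2, Pold1, Pole2, Lig1, Chaf1a and Chaf1b lost), and the block changed no count of calls by over 1.5 times for the 29 other factors. Leaving out single samples gave 1 to 28. Among all genes tested 755 were called higher in the main fit. That number was 649 with a pseudocount of 0.01, 465 with no filter, 701 with the block and 189 to 913 without single samples. For the other factors the 12 called became 20, 24, 19 and 26 with median-of-ratios, quantile, the joint fit and the looser threshold, which also put 1 lower, and 1 to 14 without single samples. Orc4 turned to 0.0239 and 0.0816 under the scalings.

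In adjacent cerebellum against controls the 0 genes called became 1 with median-of-ratios scaling, 26 with the looser threshold, 0 to 25 without single samples and 26 without both adjacent GB370 and control GB512. The other factors gave 16, 0 to 12 and 10. Over all genes, 1627 were higher with the looser threshold, 564 without adjacent GB370 and 514 without both. The causes were not tested. Without counts, limits set by depth cannot be stated, and low genes such as Cdc6 in controls are the least certain.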
